A study of Rattus norvegicus with 4 samples.

Results

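miRNAs that are often used to normalise measurements of circulating RNA were followed through small RNA sequencing of serum exosomes (Exos). The members were chosen by name: any listed arm of rno-miR-191a, rno-miR-423, rno-miR-103, rno-miR-107 or rno-miR-320. Of the 243 miRNAs in the deposited values, 7 met this rule: rno-miR-191a-5p, rno-miR-191a-3p, rno-miR-423-5p, rno-miR-423-3p, rno-miR-103-3p, rno-miR-107-3p and rno-miR-320-3p. The question was which of them held a constant level over the libraries and which did not.

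Exos were isolated by ultracentrifugation from the serum of adult male SD rats. The exercise group walked on a treadmill for 4 weeks and the control group stayed sedentary. No genotype, further agent or injury is given for the rats behind these libraries. The labels put 2 libraries under Exercise and 2 under Sedentary. The series text gives 20 rats per group, but it does not state how many rats stand behind a library. The study states in general that its quantitative results rest on independent biological replicates, without naming the rats behind each library. The p-values thus measure the spread between these libraries, which may be technical. The library titles may conflict with the labels. The sedentary label goes with titles in E and the exercise label with titles in N. Groups follow the treatment labels throughout, and an exchange of the groups would turn the sign of every difference without changing its size. The assignment of the libraries is in doubt, so each direction below is that of the labels and may be the reverse of that in the rats. Levels are in RPM, the reads of a miRNA scaled to a library total of 1000000 that holds more than the miRNA reads, with no scaling for length.

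A miRNA gene yields a hairpin whose arms, named 5p and 3p, can both become mature miRNAs. Bases 2 to 8 of the mature strand, the seed, carry most of the target recognition. A reference miRNA serves as the denominator of a relative measurement, so it must not itself differ between the groups compared. miR-191 is made from the same locus as miR-425. miR-103 and miR-107 lie within genes of pantothenate kinases, the enzymes that begin coenzyme A synthesis, and are known for effects on insulin sensitivity. miR-320 is cut from a hairpin that bypasses the usual nuclear processing step, and its 3p arm is the one that is loaded. miR-423-5p has been studied in plasma in heart failure.

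The mature sequences are shown because the members fall into different seed groups and because one pair is almost identical. They are printed with T in place of U, as deposited, with the seed in capitals.
rno-miR-423-5p: tGAGGGGCagagagcgagactttt
rno-miR-423-3p: aGCTCGGTctgaggcccctcagt
rno-miR-320-3p: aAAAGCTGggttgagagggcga
rno-miR-191a-5p: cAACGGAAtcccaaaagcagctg
rno-miR-191a-3p: gCTGCACTtggatttcgttccc
rno-miR-103-3p: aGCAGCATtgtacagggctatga
rno-miR-107-3p: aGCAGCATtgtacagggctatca

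Only rno-miR-103-3p and rno-miR-107-3p shared a seed among the 7. They differ by G22C, counted from 1 at the 5′ end of rno-miR-103-3p, so a read of fewer than 22 bases does not separate them and the authors' counting could split their reads. The closest other listed sequences of the remaining members lay 6 to 10 edits away. RefSeq mature entries in the rat assembly GRCr8 matched 5 of the 7 by name, each with the same sequence. miR-423-5p lies at chr10:62412317-62412340 on the minus strand, inside the span of Nsrp1. The arms of miR-191a lie at chr8:118142641-118142663 and chr8:118142683-118142704 on the plus strand, inside the span of Dalrd3. miR-103-3p lies at chr3:138963278-138963300 on the plus strand, inside Pank2, and its sequence is also held by the hairpin of Mir103a1, inside Pank3. miR-107-3p lies at chr1:241750431-241750453 on the minus strand, inside Pank1. These are positions in GRCr8, whereas the authors aligned to mRatBN7.2. The gene table gives spans only, so exon and intron were not assigned. The 3p arm of miR-191a overlaps miR-191b, which is encoded on the opposite strand. Whether the counting used strand was not stated. miR-191b had at most 1.99 RPM.

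On the scale of derived reads, where the smallest value of a library is taken as 1 read, the libraries held 20780612 to 22140315 reads, of which 3.43% and 3.92% under the sedentary label and 3.15% and 2.93% under the exercise label fell on listed miRNAs. The number of miRNAs above 0 was 151 and 152 under the sedentary label and 179 or more in each library under the exercise label. The groups did not overlap in either measure, and the part of this in the members' levels was not tested. limma was fitted to log2(RPM + 1) of the 178 miRNAs that were not 0 in 2 or more libraries. A call needed both an adjusted p under 0.05 and a log2 fold change beyond 1 in either direction. Of these, 14 were called (7.87%), with 9 higher under the exercise label and 5 lower (2.81%). When either sedentary replicate was left out 0 were called (44 and 46 passed at the same fold when p was not adjusted), and without exercise replicate 1 or 2 the counts were 11 and 10, none of them lower. With median-of-ratios scaling the calls split into 5 higher and 9 lower. An exact two-sided permutation test of 2 libraries against 2 cannot give a p below 0.33. Wilson intervals and floors below cover counting error only, and the intervals of log2 fold changes are those of limma.

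Levels of the 7 differed widely. By the mean over all libraries miR-423-5p was the most abundant, followed by miR-191a-5p, miR-320-3p and miR-423-3p, then miR-103-3p, and miR-191a-3p and miR-107-3p were near the floor in part of the libraries. miR-191a-5p, with a mean of 66.9 RPM over all libraries, and miR-320-3p, with 63.0, did not differ beyond their spread, and their order turned between the groups. The order of miR-423-5p and miR-191a-5p turned as well, with miR-191a-5p the higher in both libraries labelled exercise. Of the 7, 5 were above 0 in all libraries, 6 passed the filter, and 1 of these, miR-423-5p, was called. The groups did not overlap for 5 of the 6, against 52.2% of all tested miRNAs. Among these 5, 3 were lower and 2 higher in the libraries labelled exercise, so these reference miRNAs did not share a direction. The median log2 fold change was -0.38 over the 6 members and 0.21 over all tested miRNAs.

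**Figure D1:**
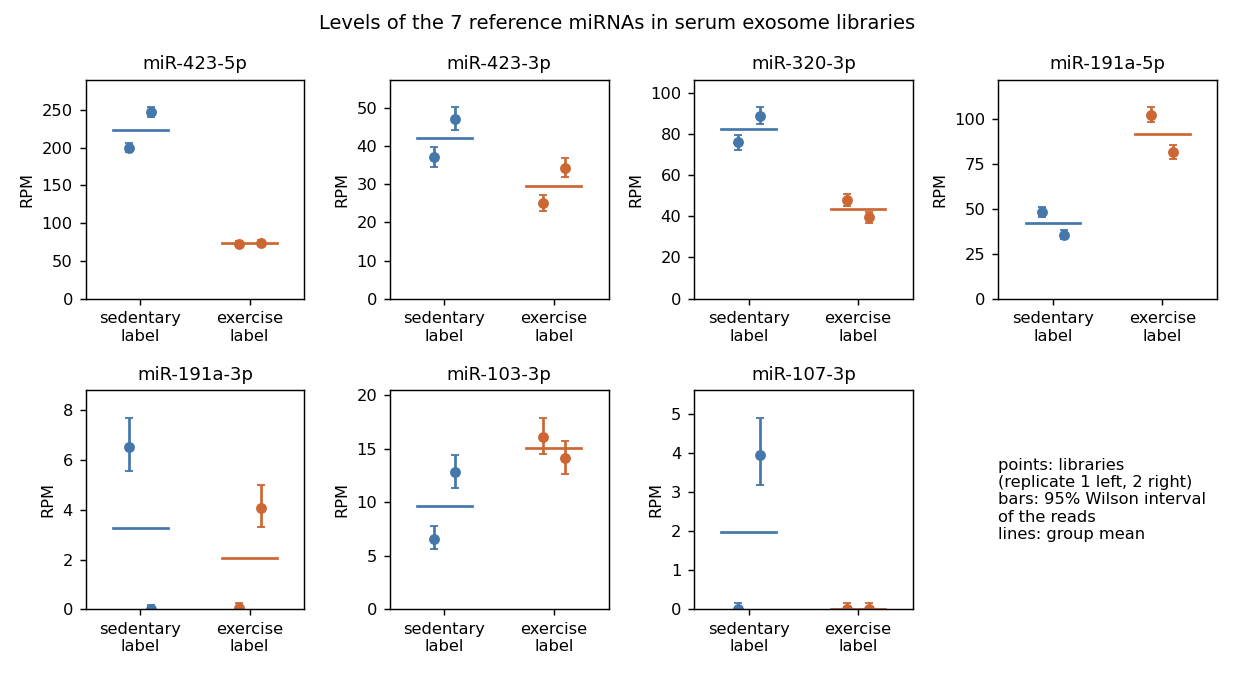
RPM of each member in each library, on linear axes that start at 0. Points are libraries, bars are 95% Wilson intervals of the reads and lines are group means; miR-423-5p, miR-423-3p and miR-320-3p lie lower, and miR-191a-5p and miR-103-3p higher, in both libraries labelled exercise than in both labelled sedentary.

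miR-423-5p was 3.03-fold higher in the mean of the libraries labelled sedentary. It held 199 and 247 RPM there (4391 and 5125 reads) and 72.9 and 74.1 RPM in the libraries labelled exercise (1602 and 1641 reads). The latter agree within counting error, with 95% Wilson intervals of 69.4 to 76.6 and 70.6 to 77.8 RPM, while both sedentary values stand far above them. The group means were 223 ± 33.4 (SD, n = 2) and 73.5 ± 0.864 RPM (SD, n = 2). Its log2 fold change, with the exercise label over the sedentary label, was -1.58 (standard error 0.19, 95% interval -2.04 to -1.12, Benjamini-Hochberg adjusted p = 0.017 from limma). The call was lost when any single library was left out (adjusted p from limma 0.054 without sedentary replicate 2, 0.069 without sedentary replicate 1, 0.18 without exercise replicate 1 and 0.21 without exercise replicate 2) and with a single variance prior (0.11). The log2 fold change stayed between -1.73 and -1.43 over all alternatives. With all libraries kept and no block, the adjusted p from limma lay between 0.0015 and 0.11. It was 3.3e-07 with the replicate block, which uses replicate numbers that were not shown to pair the libraries. The study names miR-423-5p from its own comparison of these libraries, so the call is not independent evidence.

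miR-423-3p, the opposite arm of the same hairpin, held 37.1 and 47.1 RPM in the libraries labelled sedentary and 25 and 34.2 RPM in those labelled exercise. The groups did not overlap, but the gap between the nearest libraries was small. Its log2 fold change (exercise over sedentary, as for each member) was -0.50 (standard error 0.32, 95% interval -1.29 to 0.29, adjusted p = 0.39 from limma), which was not called, and the interval reaches past a halving. It was -0.28 without exercise replicate 1, -0.33 without sedentary replicate 2 and -0.72 without exercise replicate 2, so single libraries decide its size. Over the alternatives the adjusted p from limma ranged from 0.24 to 0.73.

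The arms of miR-423 did not keep their proportion. The ratio of 5p to 3p was 5.38 and 5.23 in the libraries labelled sedentary and 2.91 and 2.16 in those labelled exercise. This ratio does not depend on the scaling of a library, and the groups did not overlap. With the 3p arm as reference, the log2 fold change of the 5p arm was -1.08 (standard error 0.40, adjusted p = 0.063 from limma), and with the 5p arm as reference, the 3p arm had 1.08 (standard error 0.30, adjusted p = 0.022 from limma), so the call depended on which arm was the reference. The latter call was lost without sedentary replicate 2 (1.10, adjusted p = 0.053 from limma) and without exercise replicate 2 (0.87, adjusted p = 0.22 from limma), and the former value became a call without exercise replicate 1 (-1.29). Among the 5 miRNAs with both arms above 0 in all libraries at a mean of at least 10 RPM each, the change of the arm ratio of miR-423 was the third in size, after miR-3559 and miR-27a, and the groups did not overlap for any of the 5.

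miR-320-3p held 75.9 and 88.8 RPM in the libraries labelled sedentary and 47.9 and 39.5 RPM in those labelled exercise. Each sedentary value exceeded each exercise value by over 1.5 times. The log2 fold change was -0.90 (standard error 0.24, 95% interval -1.49 to -0.32, adjusted p = 0.074 from limma), short of a call. Median-of-ratios scaling made it a call at -1.0 (adjusted p = 0.032 from limma). The alternatives gave adjusted p values of 0.032 to 0.32 for miR-320-3p.

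miR-191a-5p moved the other way. It held 48.2 and 35.6 RPM in the libraries labelled sedentary (1062 and 740 reads) and 102 and 81.5 RPM in those labelled exercise (2248 and 1804 reads). The higher sedentary value lay well below the lower exercise value. Its group mean was 2.19-fold higher under the exercise label, with 91.9 ± 14.7 (SD, n = 2) against 41.9 ± 8.93 RPM (SD, n = 2). The log2 fold change was 1.12 (standard error 0.26, 95% interval 0.47 to 1.77, adjusted p = 0.058 from limma), just outside the threshold. With a mean of at least 10 RPM as the filter, which left 82 miRNAs in the adjustment, it was called (adjusted p = 0.019 from limma). With all libraries kept and no block, the adjusted p from limma ran from 0.019 to 0.15. It was 0.0043 with the replicate block, which uses replicate numbers that were not shown to pair the libraries.

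The 3p arm of miR-191a could not be followed in the same way. Its reads numbered 144 and 0 under the sedentary label and 1 and 90 under the exercise label. A library with over 80 reads thus stood beside one with at most 1 read in each group. Its log2 fold change was -0.25 (95% interval -3.44 to 2.93, adjusted p = 0.89 from limma), and without sedentary replicate 1 it was 1.20. A count of 0 allows up to 3 reads, or 0.135 to 0.144 RPM here, and is no proof of absence. miR-425-5p, which is made from the same locus and was on a list of other references, had 10.7 and 0.0962 RPM in the libraries labelled sedentary and 7.37 and 12.5 RPM in those labelled exercise. Its low library, sedentary replicate 2, is the one in which miR-191a-3p had 0 reads. In exercise replicate 1, however, miR-191a-3p had 1 read and miR-425-5p was not low.

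miR-103-3p was low in all libraries. It held 6.59 and 12.8 RPM under the sedentary label (145 and 266 reads) and 16.1 and 14.1 RPM under the exercise label (354 and 312 reads). The sedentary libraries differed from each other by more than counting error, with Wilson intervals of 5.60 to 7.75 and 11.4 to 14.4 RPM, while the interval of sedentary replicate 2 overlapped that of exercise replicate 2 (12.6 to 15.7 RPM). The log2 fold change was 0.65 (standard error 0.60, 95% interval -0.84 to 2.14, adjusted p = 0.54 from limma). Without sedentary replicate 1 it was 0.22 and without sedentary replicate 2 it was 1.08, so the sedentary libraries decide its size.

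miR-107-3p, its near-identical relative, had 82 reads (3.95 RPM) in sedentary replicate 2 and 0 reads in the other 3 libraries. It did not pass the filter. Without that library it was at 0 throughout, and no fold is given. If the counting split the reads of the pair, these reads would add to the 12.8 RPM of miR-103-3p in that library. The groups of miR-103-3p would then overlap.

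Stability was next described without the group labels, as the standard deviation (SD) of log2(RPM + 1) over the 4 libraries. Of all listed miRNAs, 81 were above 0 in every library and averaged 10 RPM or more, and their median SD was 0.52. miR-423-3p had the lowest SD of the members, 0.37, and ranked 25 of 81 from the most stable. miR-103-3p (SD 0.52, rank 42) and miR-320-3p (SD 0.54, rank 44) lay beside the median. miR-191a-5p (SD 0.68) ranked 58 and miR-423-5p (SD 0.92) ranked 73. The order of the members rests in part on sedentary replicate 1. Without that library the SD of miR-103-3p was 0.16, the lowest of the members, and that of miR-423-3p was 0.44. With each of the other libraries left out miR-423-3p had the lowest SD of the members, between 0.23 (without exercise replicate 1) and 0.45, and miR-103-3p lay between 0.54 and 0.63. With a pseudocount of 10 in place of 1 the SD was 0.287 for miR-103-3p and 0.291 for miR-423-3p. In each of these settings miR-423-5p had the highest SD, at 0.82 or more. From its lowest to its highest library miR-423-5p spanned 3.38-fold, miR-191a-5p 2.87-fold, miR-103-3p 2.45-fold, miR-320-3p 2.25-fold and miR-423-3p 1.88-fold.

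Spread within the groups gave another order. Pooled over both groups, the SD within a group was 0.15 for miR-423-5p, rank 19 of 81, and 0.18 for miR-320-3p, rank 22. It was 0.27 for miR-191a-5p, 0.28 for miR-423-3p and 0.44 for miR-103-3p, against a median of 0.26. miR-423-5p was therefore among the more repeatable miRNAs between replicate libraries and among the most variable over all 4. Under median-of-ratios scaling the ranks over all libraries were 34 for miR-423-3p, 36 for miR-103-3p, 47 for miR-320-3p, 54 for miR-191a-5p and 73 for miR-423-5p. Taken as a share of the miRNA reads, miR-423-3p ranked 11, miR-320-3p 22, miR-103-3p 48, miR-423-5p 61 and miR-191a-5p 67.

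**Figure D2:**
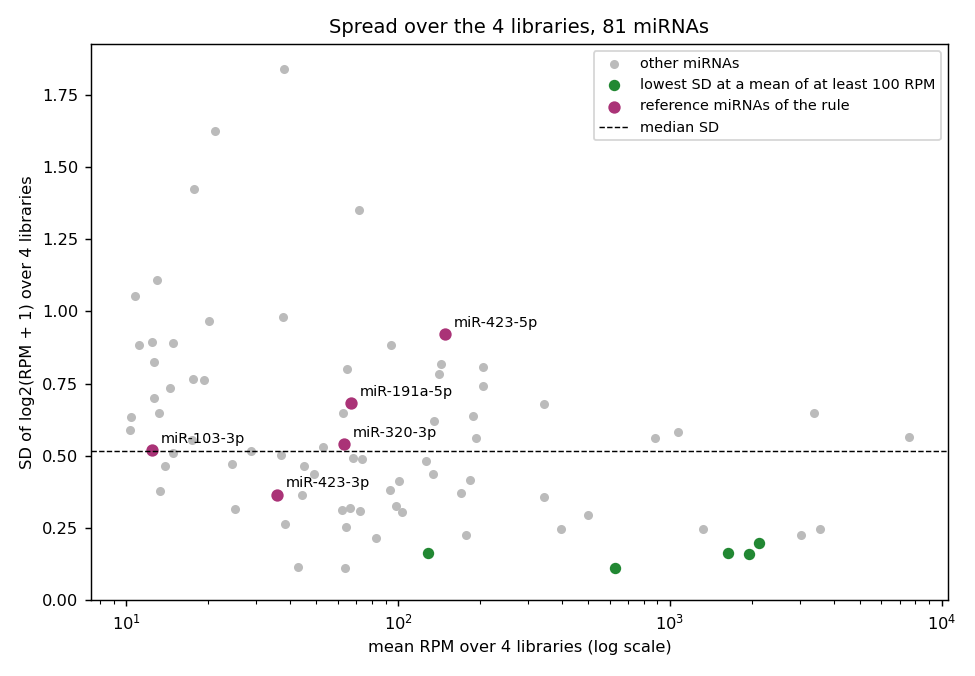
Mean RPM (log scale) against the SD of log2(RPM + 1) over the 4 libraries for 81 miRNAs. The members run from miR-423-3p (0.37) to miR-423-5p (0.92), around the dashed median of 0.52, and the 5 miRNAs marked for the lowest SD at a mean of at least 100 RPM lie between 0.11 and 0.20.

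For comparison, the 5 miRNAs with the lowest SD at a mean of at least 100 RPM were let-7a-5p (0.11), let-7c-5p (0.16), miR-143-3p (0.16), miR-30d-5p (0.16) and let-7i-5p (0.20). They were ranked on these libraries, so their stability is a description. Under median-of-ratios scaling their SDs were 0.13, 0.12, 0.24, 0.12 and 0.13 in the same order. As a share of the miRNA reads they were 0.28, 0.13, 0.069, 0.25 and 0.29. let-7a-5p, a member of the let-7 family of growth-restraining miRNAs, held 585 and 598 RPM under the sedentary label and 643 and 693 RPM under the exercise label, a span of 1.18-fold. miR-126a-3p, an endothelial and platelet miRNA at a mean of 64.0 RPM, spanned 1.19-fold (57.6, 68.4, 67.5 and 62.6 RPM). At nearly the same mean, miR-191a-5p and miR-320-3p spanned 2.87-fold and 2.25-fold.

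A list of 22 other miRNAs that have been proposed as references in blood or serum was set beside the members. Of these, 21 were listed in the values and tested, 2 were called higher in the libraries labelled exercise and 0 lower, against 7.87% called in either direction over the table, with a median log2 fold change of 0.94 against 0.21 over all tested miRNAs. The called ones were miR-26a-5p (log2 fold change 1.36, adjusted p = 0.025 from limma) and miR-30c-5p (2.72, adjusted p = 0.043 from limma). miR-16-5p, a red cell miRNA widely used as a reference, had 0 and 1.97 RPM under the sedentary label and 8.42 and 8.67 RPM under the exercise label. Only 10 of the list met the conditions for ranking, and their median SD was 0.28. miR-24-3p (44.8, 46.3, 38.6 and 41.6 RPM) ranked 3 of 81 and miR-484 did not reach a mean of 10 RPM.

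Ratios between the 5 members above 0 in all libraries do not depend on how a library is scaled. The SD of the log2 ratio was lowest for miR-320-3p with miR-423-3p (0.38) and with miR-423-5p (0.41). The ratio of miR-320-3p to miR-423-3p was 2.05 and 1.88 under the sedentary label and 1.91 and 1.15 under the exercise label, and exercise replicate 2 alone stood apart. It was highest for miR-191a-5p with miR-423-5p (1.61). miR-191a-5p had 0.242 and 0.144 times the level of miR-423-5p in the libraries labelled sedentary and 1.40 and 1.10 times that level in those labelled exercise. The order of these reference miRNAs was thus reversed between the groups, over a 9.72-fold range. Averaged over its 4 partners, the SD was 0.72 for miR-423-3p, 0.75 for miR-320-3p, 0.94 for miR-103-3p, 1.01 for miR-423-5p and 1.13 for miR-191a-5p.

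**Figure D3:**
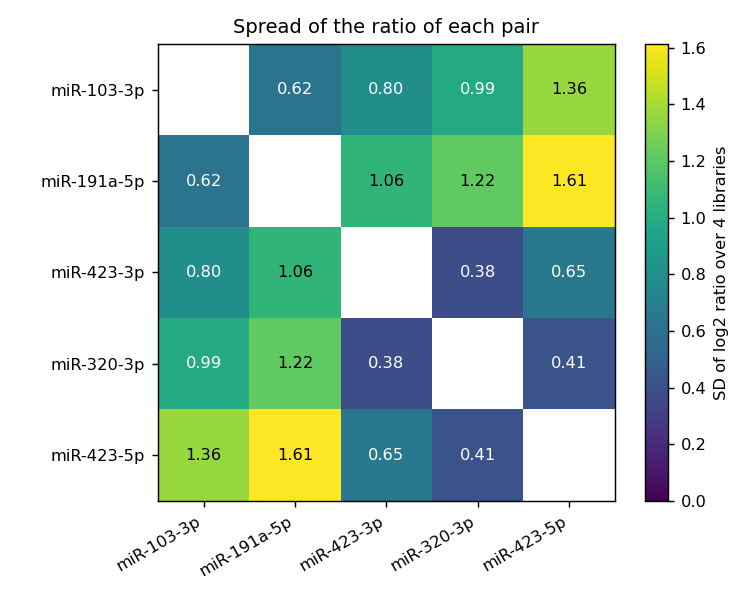
SD of the log2 ratio over the 4 libraries for each pair of members above 0 in all libraries. The pairs of miR-320-3p with either arm of miR-423 lie at 0.38 and 0.41, and the pairs of miR-423-5p with miR-191a-5p and miR-103-3p at 1.61 and 1.36.

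Each member was then tested relative to each other member, with adjustment over the whole table. The log2 fold change of a pair is the difference between those of its members. Among the 10 pairs, 3 were called whichever member served as reference, 3 in one of the 2 fits only and 4 in neither. Over the whole table the same fits called 47.5% of miRNAs relative to miR-423-5p and 31.1% relative to miR-320-3p. The shares were 13.0% relative to miR-191a-5p, 10.2% relative to miR-423-3p and 6.21% relative to miR-103-3p. miR-191a-5p rose relative to miR-423-5p by 2.70 on the log2 scale (standard error 0.31, adjusted p = 0.00049 from limma) and relative to miR-320-3p by 2.02 (standard error 0.29, adjusted p = 0.0010 from limma). miR-103-3p rose relative to miR-423-5p by 2.23 (standard error 0.56, adjusted p = 0.014 from limma). With miR-423-5p or miR-320-3p as the reference, the calls of miR-191a-5p held without any single library, at 2.33 to 3.07 and 1.70 to 2.35. With miR-191a-5p as the reference both were lost without exercise replicate 1 (adjusted p = 0.43 from limma) or exercise replicate 2 (0.40). The call of miR-103-3p was lost without exercise replicate 1 (2.13, adjusted p = 0.20 from limma) or exercise replicate 2 (2.33, 0.14). For miR-320-3p against miR-423-3p the difference was -0.40 (standard error 0.46, adjusted p = 0.61 from limma), and for miR-103-3p against miR-191a-5p it was -0.47 (standard error 0.75, adjusted p = 0.74 from limma). The former was -0.76 without exercise replicate 1 and -0.05 without exercise replicate 2. The latter turned to 0.18 without sedentary replicate 2. Without sedentary replicate 1 it was -1.11, where miR-191a-5p relative to miR-103-3p became a call (1.11, adjusted p = 0.0015 from limma). These pairs were not shown to move alike.

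The whole table was also expressed relative to each of these 5 members, to see how the reference changes the calls. These fits share all libraries with each other and with the values in RPM, and the spread of the reference enters every row. Subtracting a reference moves the log2 fold change of every miRNA by that of the reference. The direction of the calls and the medians below thus restate the members' own fold changes and are not further evidence on them. Relative to miR-423-5p, 84 of 177 miRNAs were called (47.5%), all higher in the libraries labelled exercise. Relative to miR-320-3p, 55 were called (31.1%), again all higher. Relative to miR-423-3p, 18 were called (10.2%), all higher. Relative to miR-191a-5p, 23 were called (13.0%) and relative to miR-103-3p, 11 (6.21%), of which 0 and 1 were higher. With a pseudocount of 10 in place of 1, the calls were 152 for miR-423-5p and 70 for miR-191a-5p, and for the other 3 they stayed within 1.5 times. The median log2 fold change over the table was 1.79 with miR-423-5p as reference, 1.12 with miR-320-3p, 0.71 with miR-423-3p, -0.45 with miR-103-3p and -0.92 with miR-191a-5p, against 0.21 in RPM. Of the 14 calls in RPM, 9 remained with miR-423-5p, miR-320-3p or miR-423-3p as reference and 5 with either of the others.

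The mean log2 level of the 5 members, which joins members of opposite direction, had an SD of 0.18 over the libraries and a difference of -0.24 between the groups. A mean over several miRNAs varies less by averaging alone, so this SD is not set against those of single miRNAs. Relative to this mean, 15 of 173 miRNAs were called (8.67%), 13 higher and 2 lower, and 10 of the 14 calls in RPM remained. Counts depended on single libraries. Without exercise replicate 1 or 2 the mean, miR-191a-5p and miR-103-3p each gave 0 calls (25 and 26, 17 and 20, and 7 and 8 passed at the same fold when p was not adjusted). Without sedentary replicate 1 they gave 25, 77 and 38, and without sedentary replicate 2, 25, 46 and 54. miR-320-3p gave 22 without exercise replicate 2. miR-423-3p gave 7 without sedentary replicate 1, 5 without sedentary replicate 2 and 10 without exercise replicate 1. miR-423-5p gave 71 to 109.

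**Figure D4:**
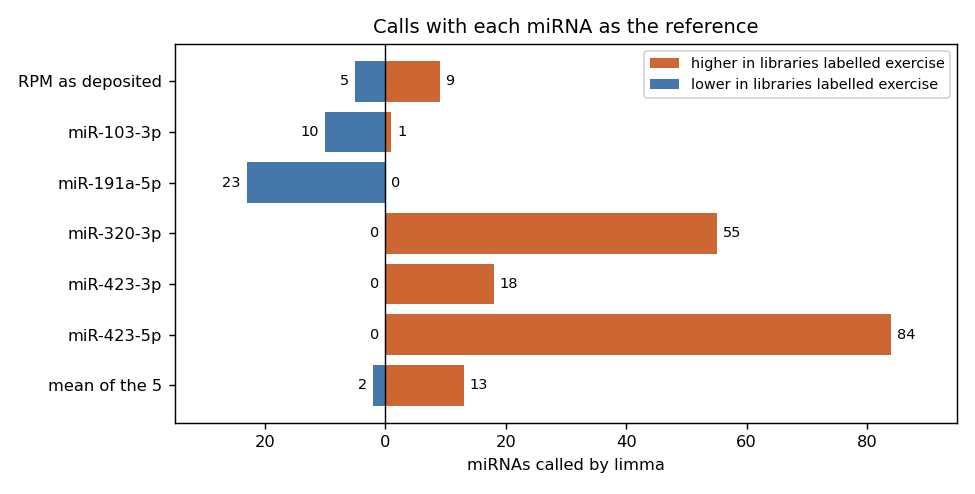
Number of miRNAs called by limma as higher (right) or lower (left) in the libraries labelled exercise, for the values in RPM and relative to each member or their mean. With either arm of miR-423 or with miR-320-3p as reference all calls are higher, and with miR-191a-5p all 23 are lower. Each reference shifts every log2 fold change by its own.

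The study took miR-151-3p forward, and its ratio to each member shows what the reference does to a single measurement. Each relative value below is its log2 fold change in RPM less that of the reference. In RPM miR-151-3p changed by -1.08 on the log2 scale from the sedentary to the exercise label, a sign that rests on the doubtful labels (adjusted p = 0.025 from limma). Relative to miR-191a-5p it was -2.20 (standard error 0.42, adjusted p = 0.011 from limma) and relative to miR-103-3p -1.73 (standard error 0.49, adjusted p = 0.012 from limma), both called. These 2 calls were lost without exercise replicate 1 (-2.19 and -1.80) or exercise replicate 2 (-2.21 and -1.67), and the call in RPM was lost when any single library was left out, at -1.24 to -0.92. Relative to miR-423-3p it was -0.58 (standard error 0.42) and relative to miR-320-3p -0.18 (standard error 0.14), with adjusted p values of 0.34 and 0.35 from limma. The value relative to miR-423-3p was -0.95 without exercise replicate 1 and -0.21 without exercise replicate 2. With miR-423-5p as reference it turned to 0.50 (standard error 0.16, adjusted p = 0.036 from limma), under the fold threshold. The ratio to miR-320-3p was 54.0 and 57.6 in the libraries labelled sedentary and 50.3 and 49.3 in those labelled exercise, whereas the ratio to miR-423-5p was 20.5 and 20.7 against 33.0 and 26.3. Both sedentary libraries lay above both exercise libraries for the former and below them for the latter. The reference of the study's RT-qPCR, for which its primer list holds U6 snRNA, was not analysed here.

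**Figure D5:**
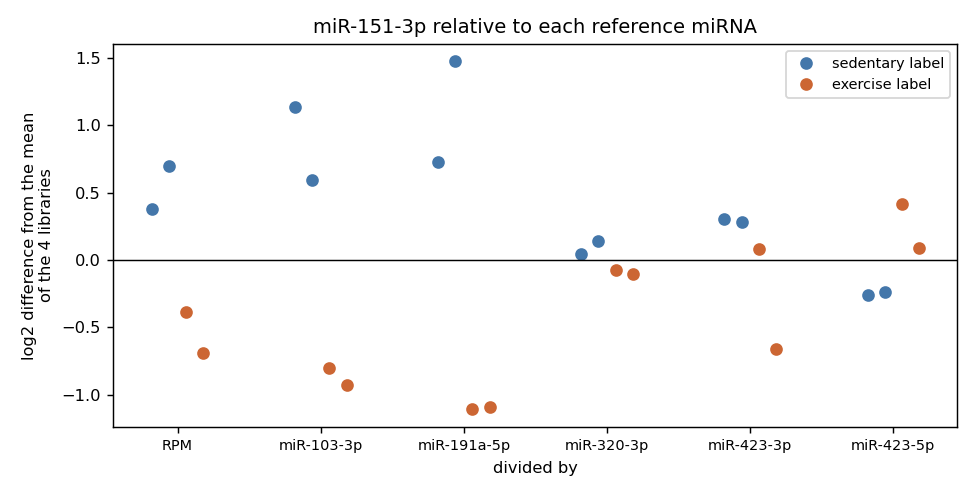
log2 level of miR-151-3p in each library, in RPM and after division by each member, as the difference from the mean of the 4 libraries. The libraries labelled sedentary lie above those labelled exercise in all columns except that of miR-423-5p, where they lie below, and the columns of miR-320-3p and miR-191a-5p have the narrowest and the widest range.

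Patterns most like those of the members were sought among the 81 miRNAs by the SD of the log2 ratio over the 4 libraries. For miR-320-3p the nearest were miR-486 (0.051), miR-28-3p (0.059) and miR-151-3p (0.10). miR-486, an erythroid miRNA and the most abundant in these libraries, held 8754 and 11162 RPM under the sedentary label and 5710 and 4724 RPM under the exercise label, and its ratio to miR-320-3p varied 1.09-fold. For miR-191a-5p the nearest were miR-532-5p (0.091), miR-181b-5p (0.11) and miR-30a-5p (0.13). The nearest to miR-103-3p were miR-27a-3p (0.14), miR-23a-3p (0.16) and miR-106b-3p (0.18). For miR-423-5p they were let-7d-3p (0.18), miR-206-3p (0.32) and miR-151-3p (0.32), and for miR-423-3p let-7b-5p (0.19), miR-328a-3p (0.24) and miR-24-3p (0.27). Each likeness rests on 4 libraries in 2 groups.

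miRNAs of cells that serum can carry RNA from were summed beside these results. The 5 red cell miRNAs totalled 8768 and 11312 RPM under the sedentary label and 5774 and 4806 RPM under the exercise label, nearly all of it miR-486. miR-320-3p and both arms of miR-423, of which only miR-423-5p was called, had negative log2 fold changes too. miR-486 set the direction of the sum. miR-16-5p had a log2 fold change of 2.47 with no overlap of the groups, and the median over the tested red cell miRNAs was 0.37. miR-451-5p, another abundant erythroid miRNA, had 14.7 and 148 RPM under the sedentary label and 54.0 and 70.4 RPM under the exercise label, and its groups overlapped. Each arm of miR-144 was at 0 in 3 libraries. Of the 5, 3 were tested and 0 were called. The 4 liver miRNAs in the values, led by miR-122-5p, summed to 1535 and 1689 RPM against 933 and 931 RPM, with 1 of 3 tested called lower (miR-122-5p, log2 fold change -1.0). The others did not share that direction: miR-148a-3p was at 73.1 and 88.5 RPM against 122 and 110 RPM (log2 fold change 0.52), miR-192-5p had a log2 fold change of 0.09, and the list's median was 0.09. The 4 platelet miRNAs summed to 90.5 and 109 RPM against 112 and 114 RPM, with 0 of 4 called. Over all tested miRNAs 7.87% were called in either direction and 2.81% lower. The part of these cells in the levels of the reference miRNAs was not tested, and in bulk RNA fewer vesicles of a source and less RNA per vesicle cannot be told apart.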

How the data were processed

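The 4 libraries hold small RNA reads from serum Exos. Per the labels and the methods of the study, reads were trimmed with cutadapt, kept at 18–35 nt, aligned to mRatBN7.2 with an aligner named Bowtie in the labels and Bowtie2 in the methods, and counted with featureCounts on miRBase. The authors' table, called TPM by them, gives 1 value for each miRNA in each library. The deposited values are RPM: each non-zero value is a whole multiple of the smallest of its library (to within 3.8e-10 reads), whatever the miRNA length. Derived reads served for depth, intervals and floors. Only 10 to 19 values per library were at most 20 reads, under the 100 set for taking derived reads as counts in the main test.

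limma 3.58.1 in R 4.3.3 was fitted to log2(RPM + 1) of 178 miRNAs, with an intensity trend in the prior and p-values adjusted by Benjamini and Hochberg. The added 1 RPM shrinks fold changes of low miRNAs. For a reference miRNA, its log2 value was subtracted in each library and its row left out. Thresholds are those of the study. The fit was tested on simulated data. Python 3.11.15 made the other tables and figures. Sequences and positions are from the deposited values and RefSeq (GRCr8). Replicate libraries differed by more than counting noise (chi-square per degree of freedom 158 and 46.6).

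The members and lists were chosen with earlier results of these data known. Named were all members, miR-151-3p, the 3 miRNAs nearest to each member, the 5 with the lowest SD at a mean of at least 100 RPM, and members of the fixed lists, of which those with a call, a place in the comparison or the list's leading level are given; miR-3559 and miR-27a were named after their values were seen. Alternatives changed the pseudocount (0.1 or 10), the filter, the scaling, the variance prior and the test (limma voom on derived reads), added the replicate block or left out each library.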

Additional observations from a re-analysis of the deposited data

How the results depend on the processing

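Directions held for the 5 members above 0 in all libraries under the alternatives run. Of the values recomputed under an alternative, 154 kept their direction and side of the threshold or moved by less than the limits set, 26 moved further, 10 lost a call, 3 gained one and 3 turned their sign. The 14 calls in RPM (9 higher, 5 lower) became 3 without the filter on low values, which brings 243 miRNAs into the adjustment, and 0 with a single variance prior (44 at an unadjusted p and the same fold). They ranged from 0 to 11 when 1 library was left out, where the lone library of a group is assumed to vary like the other group. For the changes that follow, the cause was not tested.

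miR-423-5p lost its call with a single variance prior (-1.58, adjusted p = 0.11 from limma) and with any library left out (-1.73 to -1.43). miR-191a-5p gained one when only miRNAs that averaged 10 RPM or more were kept (1.12), and miR-320-3p with median-of-ratios scaling (-1.0). miR-191a-3p turned to 0.41 with limma voom and ranged from -1.71 to 1.20 with 1 library left out. The SD of miR-423-5p was 0.76 as a share of the miRNA reads.

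With pseudocount 10, calls were 70 relative to miR-191a-5p and 152 relative to miR-423-5p. With 1 library left out they ranged from 0 to 54 for miR-103-3p, 0 to 77 for miR-191a-5p, 22 to 70 for miR-320-3p, 5 to 23 for miR-423-3p and 0 to 25 for the mean of the members. miR-151-3p ranged from -2.0 to -1.46 relative to miR-103-3p and from -2.58 to -1.83 relative to miR-191a-5p.

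Replicate numbers were not shown to pair the libraries: the deviations of same-numbered libraries had a correlation of -0.15. With 2 libraries per group the other numbering gives 0.15 by construction, so this value cannot decide whether the libraries are paired. The replicate block called 18 miRNAs in RPM, with miR-191a-5p among them (1.12), and a block with crossed numbers, which was chosen after seeing the data, 18 as well. Relative to a reference, the replicate block, added after seeing the data, gave 4 calls for miR-103-3p (miR-151-3p at -1.73, not called), 40 for miR-191a-5p and 0 for the mean (33 at an unadjusted p and the same fold).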

Other observations

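Base composition differed among the members, which the choice by name did not use. GC content was 65.2% in miR-423-3p, 54.5% in miR-320-3p, 54.2% in miR-423-5p, 52.2% in miR-191a-5p and 47.8% in miR-103-3p. Of these, the 3 that were lower in both libraries labelled exercise had the higher GC content, and the 2 that were higher there the lower. The order rests on a small gap, with 13 G or C of 24 bases in miR-423-5p and 12 of 23 in miR-191a-5p. miR-191a-3p (54.5%) and miR-107-3p (47.8%), near the floor in part of the libraries, have no clear direction. Among the 81 miRNAs above 0 in all libraries at a mean of at least 10 RPM, the median log2 fold change was -0.50 in the 27 with the highest GC content, 0.33 in the middle 27 and 0.29 in the 27 with the lowest. Spearman's rho of GC content with the log2 fold change was -0.34 over these 81 miRNAs, which share the same 4 libraries and are not independent. The part of base composition in the levels of the reference miRNAs was not tested.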
